A study of Mus musculus with 15 samples.

Results

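The p53 pathway was followed through 37 genes in BM-MSCs, the mesenchymal stem/stromal cells of mouse bone marrow, after irradiation. They were taken by symbol from a table of 54532 genes, and all 37 were found, on 1 row each. They comprise 3 core genes (p53 and its main inhibitors), 13 targets linked to cell death, 5 to DNA repair, 10 to cell cycle arrest and growth control, 3 to metabolism, and 3 survival genes of the Bcl-2 family. RNA was sequenced from 15 libraries, 3 for each of 5 groups. In Gel the cells were co-cultured for 48 h with a hydrogel of alginate that carries the RGD cell adhesion peptide. Gel/IL-12 also held the cytokine interleukin-12, Gel/Laponite held the synthetic clay Laponite, and Gel/Laponite@IL-12 held both. IR-Con was cultured for the same time without a gel. Every group, IR-Con included, consisted of C57BL/6 primary cells from a commercial supplier, used at passages 3 to 5, which had received 5 Gy of radiation. No group was left unirradiated, so the response to radiation itself cannot be measured here. The number of source animals is not given in the sources used here, and the labels do not say whether the 3 libraries of a group came from separate cultures. The p-values therefore measure the spread between libraries, which may be technical.

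The transcription factor p53 is held at a low level in undamaged cells by Mdm2, a ubiquitin ligase, and by its relative Mdm4. DNA breaks from radiation activate kinases that release p53 from both, and p53 then raises the transcription of genes that halt the cell cycle, aid repair, or start apoptosis. Mdm2 is itself a target of p53, which closes a feedback loop. Stromal cells of the bone marrow are known to survive radiation doses that kill blood progenitors.

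The total count per library was 14506459 to 17818982, and all 37 genes passed the filter on low counts. Levels are counts scaled to the size of the library by TMM (CPM). They are comparable between libraries but not between genes of different length. The 10 markers of mesenchymal stromal cells summed to 3259 to 3381 CPM in the gel libraries, against 3219 to 3681 CPM in IR-Con. Within that sum 3 of the 10 were called higher and 4 lower for the gel effect (tested as for the 37 genes), with log2 fold changes from -0.41 to 1.91, the highest for Thy1. The 13 markers of blood cells, of which 3 passed the filter, summed to 13.2 to 17.3 CPM in the gels and 13 to 18.9 CPM in IR-Con, with Tyrobp and Cd3e at 0 in every library, and of the 3 tested 1 was called higher and 1 lower (Lyz2, -1.27). Thy1 and Lyz2 were picked after their values were seen. The 5 endothelial markers, of which 4 passed, summed to 5.64 to 10.1 CPM in the gels and 6.68 to 7.29 CPM in IR-Con, with Emcn at 0. Of the 4 tested 1 was called higher and none lower, with log2 fold changes from -0.47 to 1.36. For the gel effect 55.0% of all genes tested were called, 27.4% higher and 27.6% lower. The IR-Con libraries differed more among themselves than the gel libraries did. The median coefficient of variation of the 37 genes was 4.77% to 6.02% in the 4 gel groups and 11.2% in IR-Con, where counting error alone gave 4.72% to 5.16%. IR-Con replicate 3 was below the other IR-Con libraries for 15 of the 37 genes, above them for 14 and between them for 8.

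Promoter windows of 300 bases, from 250 before to 50 after a transcript start, were taken from RefSeq (GRCm38.p6) and matched by symbol for 28 of the 37 genes, giving 40 windows. They were searched for the p53 decamer, the 10-base unit that occurs 2 times in a full p53 response element. It consists of 3 purines, a C, 2 bases that are A or T, a G and 3 pyrimidines, a pattern that reads the same on both strands. The decamer was found in 10 of the 28 genes (35.7%), against 9.6% of the 27025 genes in the table, and in 11 of the 40 windows (27.5%), against 8.4% of all 32851 windows. A full element was counted only as 2 exact decamers, at most 13 bases apart, within the same window. No window of these genes held such an element, which was found in 0.07% of all windows. Elements with mismatches or outside the windows were not searched for. A match describes letters only and shows no binding. The stretches of the 6 genes that held a decamer and also differed between gels and IR-Con are given in the direction of the gene, with the decamer in capitals, so that the element can be read beside the gene's values. Mdm2 is at chr10:117710915-117710964 on the minus strand, Aen at chr7:78895917-78895966 on the plus strand, Ccng1 at chr11:40755442-40755491 on the minus strand, Gtse1 at chr15:85859935-85859984 on the plus strand, Sesn1 at chr10:41887246-41887295 on the plus strand and Abhd4 at chr14:54259264-54259313 on the plus strand.
Mdm2: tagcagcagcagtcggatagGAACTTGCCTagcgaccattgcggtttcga
Aen: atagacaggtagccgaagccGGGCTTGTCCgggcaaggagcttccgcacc
Ccng1: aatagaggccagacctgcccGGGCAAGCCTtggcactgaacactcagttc
Gtse1: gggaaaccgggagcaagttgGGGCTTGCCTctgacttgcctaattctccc
Sesn1: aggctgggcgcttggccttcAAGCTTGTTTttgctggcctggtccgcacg
Abhd4: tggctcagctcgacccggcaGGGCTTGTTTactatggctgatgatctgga

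With the transcript start as position 0, the decamer began at -186 in Mdm2, -185 in Ccng1 and -173 in Sesn1, and at 1 in Abhd4 and 9 in Gtse1. In Aen, which has 2 windows, the same decamer began at 10 from one start and at -121 from the other. Gtse1, Sesn1 and Abhd4 also have 2 windows each, and in each the other window held no decamer. The windows of Sesn1 and Abhd4 with the decamer lie wholly inside the gene. There -173 and 1 are thus not distances from the first base of the gene. The starts used for Aen, Ccng1 and Gtse1 also lie inside the gene. Their positions are not such distances either, and only that of Mdm2 is. Gtse1 and Aen were higher in the gels and the other 4 were lower. The remaining genes with a decamer (Trp53, Bax, Ei24 and Polk) did not pass the test. Of the 18 genes that had a window without a decamer, 6 were higher in the gels, 7 were lower and 5 did not pass. Calls were thus made in 6 of 10 genes with a decamer and in 13 of 18 without one, where 55.0% of all genes tested were called, and nothing is read from these counts.

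The question of the main comparison was how the p53 pathway of irradiated BM-MSCs differed when a gel was present. The gels did not move the pathway in 1 direction. The death receptor Fas, the nuclease Aen and the mitotic proteins Gtse1 and Psrc1 were 1.85 to 2.23 times as high in the gels, while the death receptor Eda2r, the apoptosome scaffold Apaf1, the stress protein Trp53inp1 and the p53 inhibitor Mdm4 were lower. The gel effect sets the average of all 4 gel groups against IR-Con and was tested with edgeR's quasi-likelihood model at an adjusted p under 0.05. By this test 22 of the 37 genes differed (59.5%), against 55.0% of the 15590 genes tested, so the share was close to that of all genes. Of the 37 genes 9 were higher and 13 lower, where 27.4% of all genes were higher and 27.6% lower. The median log2 fold change was -0.04 over the 37 genes and -0.008 over all genes tested. With limma's voom and a separate weight for IR-Con and for the gels, 12 of the 37 genes passed (33.1% of all genes), 4 higher (16.2% of all genes) and 8 lower (16.9%), and without IR-Con replicate 3 edgeR called 26 (58.0% of all genes), of which 12 were higher (29.2%). The calls of 12 genes (32.4%) held under all 21 alternatives run, against 28.1% of all genes, with 4 higher (14.4% of all genes) and 8 lower (13.7%). The alternatives include DESeq2, voom, the authors' FPKM values and leaving out each library in turn. The 12 genes were Fas, Aen, Gtse1 and Psrc1, which were higher, and Mdm4, Eda2r, Apaf1, Trp53inp1, Ccng1, Btg2, Abhd4 and Mcl1, which were lower.

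**Figure D1:**
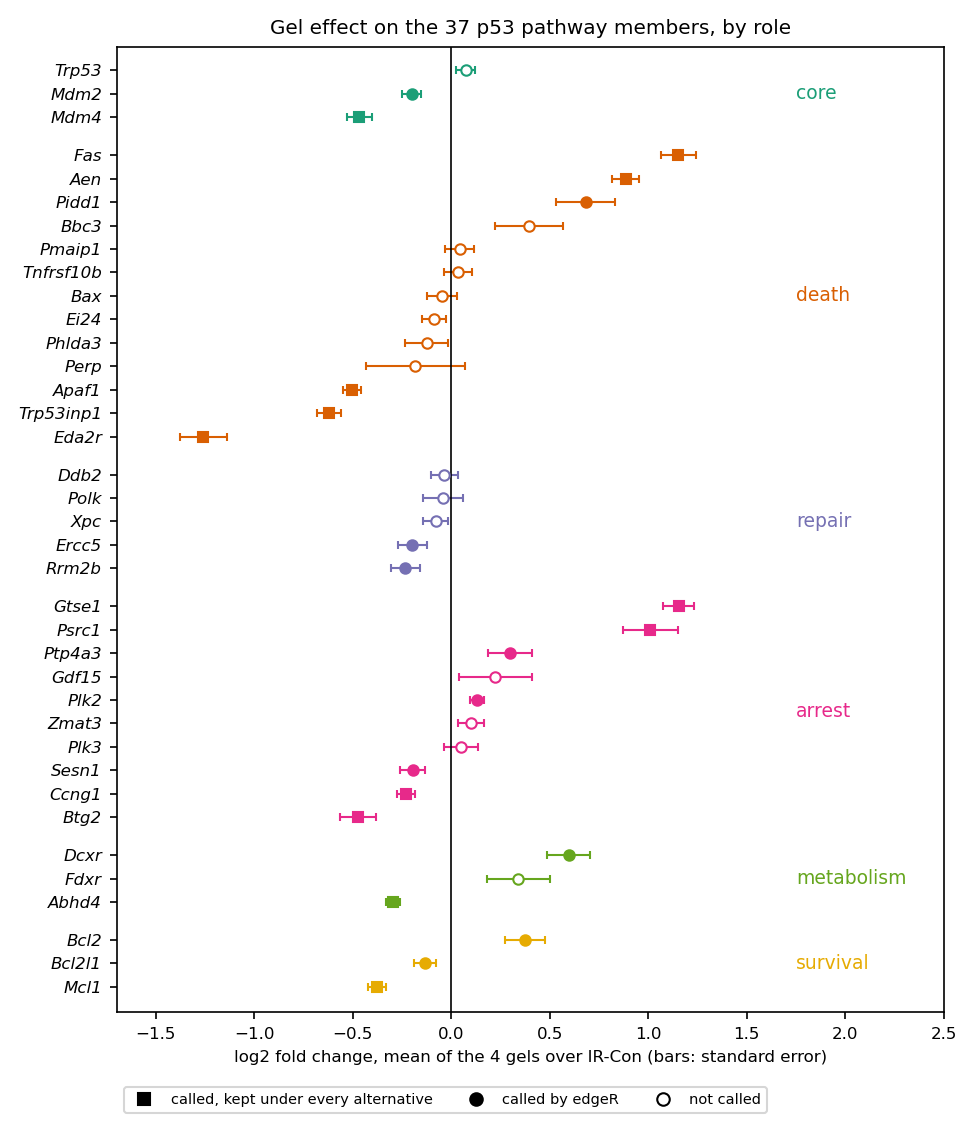
Log2 fold change of the 4 gels, averaged, over IR-Con for each of the 37 genes (horizontal axis), grouped by role and ordered by size within a role. Bars are standard errors from edgeR, squares are calls held under every alternative, filled circles are other calls and open circles did not pass. Death genes lie on both sides of 0, from -1.26 for Eda2r to 1.15 for Fas. The arrest and growth control genes run from -0.48 for Btg2 to 1.16 for the mitotic protein Gtse1. The 5 repair genes lie between -0.23 and -0.04.

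By class, calls among the death, repair and arrest genes were 46.2%, 40.0% and 70.0%, around the 55.0% of all genes tested, of which 27.4% were higher and 27.6% lower. Among the 13 death genes, 3 were higher, 3 were lower and 7 did not pass, with a median log2 fold change of -0.05. Among the 5 repair genes, none was higher, 2 were lower and 3 did not pass, with a median of -0.08. Among the 10 arrest and growth control genes, 4 were higher, 3 were lower and 3 did not pass, with a median of 0.11. The higher ones were Gtse1, Psrc1, Plk2 and Ptp4a3, and the lower ones were Ccng1, Btg2 and Sesn1. Gtse1 and Psrc1 are mitotic proteins, so the counts of this class do not describe genes that halt the cell cycle alone. The number of calls that held under every alternative was 5 for death, 0 for repair and 4 for arrest, where 28.1% of all genes tested had such a call. With lists this short the counts are a description, and no difference between the classes was tested.

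Of the core genes, Trp53 did not pass, whereas both of its inhibitors were lower in the gels. Trp53, which encodes p53 and lies on chromosome 11 from 69580359 to 69591873 (GRCm38, as for all positions here), had 50.2 to 56.8 CPM in the gel libraries (median 55.0), against 51.1, 49.8 and 54.2 CPM in IR-Con. Its log2 fold change was 0.07 (standard error 0.048, adjusted p = 0.209). Mdm4, which binds and masks the activation domain of p53, lies on chromosome 1 from 132959484 to 133030561. It had 70.2 to 80.4 CPM in the gels (median 76.9), against 124, 100.3 and 90.1 CPM in IR-Con, with no overlap between gels and IR-Con. Mdm4 fell by 0.47 on the log2 scale (standard error 0.0622, adjusted p = 2.12e-06). Mdm2, on chromosome 10 from 117688875 to 117710758, had 58.7 to 66.3 CPM in the gels (median 62.5), against 75.5, 72.1 and 66.5 CPM in IR-Con. The groups did not overlap, but the highest gel library and the lowest IR-Con library were close. Mdm2 fell by 0.20 (standard error 0.049, adjusted p = 0.00154), a call that voom did not give (adjusted p = 0.0573), nor did the authors' FPKM values, in which it had -0.09 (adjusted p = 0.338). The ratio of Mdm4 to Mdm2 in CPM was 1.14 to 1.36 in the gels, against 1.64, 1.39 and 1.35 in IR-Con. The ratio overlapped through IR-Con replicate 3.

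The death genes moved in both directions, and so did the receptors among them. Fas, the receptor of Fas ligand, lies on chromosome 19 from 34290666 to 34327772. It had 24.8 to 35.2 CPM in the gels (median 31.4), against 14.6, 16.0 and 10.9 CPM in IR-Con, so every gel library was above every IR-Con library. Fas rose by 1.15 on the log2 scale (standard error 0.0876, adjusted p = 4.67e-10). Eda2r, the receptor of ectodysplasin A2, is on chromosome X from 97333840 to 97377216 and had the lowest log2 fold change of the 37 genes. Its level was 4.91 to 9.07 CPM in the gels (median 6.03), against 16.6, 14.7 and 12.8 CPM in IR-Con, again with no overlap. Eda2r fell by 1.26 (standard error 0.12, adjusted p = 1.64e-08). Tnfrsf10b, the mouse TRAIL receptor, had 25.2 to 32.3 CPM in the gels, against 29.5, 28.3 and 25.9 CPM in IR-Con, and its log2 fold change of 0.03 did not pass.

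Apaf1 passed the test, while Bax, Bbc3 and Pmaip1, which also act in the mitochondrial route to apoptosis, did not. Apaf1 encodes the scaffold on which cytochrome c activates caspase 9, and lies on chromosome 10 from 90989311 to 91082770. It had 45.5 to 53.4 CPM in the gels (median 49.8), against 70.5, 72.9 and 67.9 CPM in IR-Con. Apaf1 fell by 0.50 (standard error 0.0466, adjusted p = 1.01e-08), and its groups were well apart. Bax, which forms pores in the mitochondrial outer membrane, had 29.9 to 36.1 CPM in the gels, against 26.4, 37.8 and 35.7 CPM in IR-Con (log2 fold change -0.05, adjusted p = 0.628). IR-Con replicate 1 was the lowest of all libraries for Bax, and without it the log2 fold change was -0.19 (adjusted p = 0.0145), whereas it was 0.06 without IR-Con replicate 2 (adjusted p = 0.596) and 0.20 in FPKM (adjusted p = 0.0765). Of the exon bases of Bax, 12.2% are also covered by Gm45808 on the same strand, and the part of this overlap in its counts was not tested. Bbc3, which encodes the BH3-only protein PUMA, had 5.65 to 8.76 CPM in the gels (median 7.69), against 3.95, 4.74 and 8.69 CPM in IR-Con. For this gene IR-Con replicate 3 lay at the level of the highest gel library while the other IR-Con libraries lay below all gels. The log2 fold change of Bbc3 was 0.39 (standard error 0.171, adjusted p = 0.0566), and 0.80 without IR-Con replicate 3 (adjusted p = 4.53e-05), 0.28 without IR-Con replicate 2 (adjusted p = 0.253) and 0.18 without IR-Con replicate 1 (adjusted p = 0.396). Pmaip1, which encodes the BH3-only protein Noxa, had 13.4 to 16.7 CPM in the gels, against 14.4, 15.04 and 14.5 CPM in IR-Con, and a log2 fold change of 0.04 that did not pass.

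The other death genes act in the nucleus or on signaling. Aen, a nuclease that cuts DNA and RNA during apoptosis, lies on chromosome 7 from 78895854 to 78911209. It had 34.4 to 41.9 CPM in the gels (median 37.2), against 17.9, 19.7 and 23.3 CPM in IR-Con, with no overlap. Aen rose by 0.88 on the log2 scale (standard error 0.0707, adjusted p = 1.02e-09). Trp53inp1, a stress protein that favours the phosphorylation of p53 and takes part in autophagy, lies on chromosome 4 from 11156431 to 11174379. It had 69.6 to 82.8 CPM in the gels (median 74.0), against 123, 124 and 94.2 CPM in IR-Con, and fell by 0.62 (standard error 0.0618, adjusted p = 3.39e-08). IR-Con replicate 3 was nearer to the gels than the other IR-Con libraries, yet above all of them. Pidd1, the scaffold that activates caspase 2, was a low gene with 4.38 to 6.32 CPM in the gels, against 3.10, 2.88 and 4.45 CPM in IR-Con, and these overlapped. Its rise of 0.68 on the log2 scale (standard error 0.151, adjusted p = 0.000653) did not pass with voom (adjusted p = 0.095). Perp, Ei24 and Phlda3 did not pass, with log2 fold changes of -0.18, -0.09 and -0.13. Ei24, a protein of the endoplasmic reticulum, had -0.16 without IR-Con replicate 3 (adjusted p = 0.0238) and 0.005 without IR-Con replicate 1 (adjusted p = 0.953). Phlda3, a p53 target that restrains Akt, had 22.7 to 28.9 CPM in the gels, against 23.4, 24.4 and 38.7 CPM in IR-Con, and its log2 fold change was 0.14 without IR-Con replicate 3 and -0.25 without IR-Con replicate 1, neither of which passed. Perp had 0.10 without IR-Con replicate 3 and -0.34 without IR-Con replicate 2, which did not pass either.

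The 5 repair genes had log2 fold changes between -0.23 and -0.04. Ddb2 and Xpc, which find ultraviolet and bulky lesions for nucleotide excision repair, had log2 fold changes of -0.04 and -0.08, and the lesion-bypass polymerase Polk had -0.04. None of these 3 passed, and their gel and IR-Con libraries overlapped. For Ddb2, 23.8% of the exon bases are also covered by Acp2 on the opposite strand, and the counting was not stated to use strand. Rrm2b, the p53-induced subunit of ribonucleotide reductase, which supplies nucleotides for repair, had 24.6 to 31.3 CPM in the gels (median 26.8), against 35.1, 32.8 and 28.1 CPM in IR-Con. It fell by 0.23 (standard error 0.0727, adjusted p = 0.00987), but had -0.16 without IR-Con replicate 1 (adjusted p = 0.102). Ercc5, the nuclease that cuts on the 3' side of a lesion, had 19.1 to 23.4 CPM in the gels (median 21.1), against 25.3, 26.4 and 20.9 CPM in IR-Con. It fell by 0.20 (standard error 0.0726, adjusted p = 0.0253). Without IR-Con replicate 2 it had -0.13 (adjusted p = 0.186), without IR-Con replicate 1 it had -0.17 (adjusted p = 0.104), and in the authors' FPKM values it had 0.02 (adjusted p = 0.842). Neither Rrm2b nor Ercc5 passed with voom, with adjusted p = 0.138 and adjusted p = 0.251. The repair genes therefore held no call under every alternative.

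The arrest and growth control genes that rose most are known for work in mitosis. Gtse1 encodes a microtubule protein of the G2 and M phases that also carries p53 out of the nucleus, and lies on chromosome 15 from 85859745 to 85876573. It had 18.4 to 23.9 CPM in the gels (median 20.4), against 8.99, 9.15 and 9.67 CPM in IR-Con, and rose by 1.16 on the log2 scale (standard error 0.0787, adjusted p = 8.08e-11). Psrc1, a spindle protein, lies on chromosome 3 from 108383839 to 108388231. It had 4.78 to 7.37 CPM in the gels (median 6.29), against 2.91, 3.01 and 3.34 CPM in IR-Con, and rose by 1.01 (standard error 0.139, adjusted p = 2.84e-06). Neither gene overlapped between gels and IR-Con. A separate list of 20 mitosis genes moved alongside these 2 genes. All 20 were called higher, where 27.4% of all genes tested were. Their median log2 fold change was 1.12 (range 0.57 to 1.49). They summed to 1505 to 1590 CPM in the gels, against 761 to 817 CPM in IR-Con. The list was chosen with earlier results of these data known. The part of cell division in the levels of Gtse1 and Psrc1 was not tested. In bulk RNA a different share of dividing cells and a different amount of RNA per cell cannot be told apart.

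The arrest genes that fell were Ccng1, Btg2 and Sesn1, of which Btg2 and Sesn1 are known to restrain growth. Ccng1, cyclin G1, which recruits a phosphatase to Mdm2, lies on chromosome 11 from 40748552 to 40755311. It had 93.0 to 107 CPM in the gels (median 99.3), against 122, 124 and 104 CPM in IR-Con, where replicate 3 lay within the range of the gels. Ccng1 fell by 0.23 (standard error 0.0465, adjusted p = 0.000266). Btg2, an antiproliferative protein that speeds the removal of poly(A) tails, lies on chromosome 1 from 134075170 to 134079120. It had 12.8 to 16.7 CPM in the gels (median 13.9), against 16.0, 24.3 and 19.6 CPM in IR-Con, so the groups overlapped through IR-Con replicate 1. Btg2 fell by 0.48 (standard error 0.092, adjusted p = 0.000173), and by 0.31 without IR-Con replicate 2 (adjusted p = 0.00701). Sesn1, a sestrin that restrains mTORC1, had 34.4 to 41.7 CPM in the gels, against 40.2, 49.7 and 41.8 CPM in IR-Con. Its fall of 0.20 (standard error 0.0634, adjusted p = 0.0122) was lost without IR-Con replicate 2 (-0.10, adjusted p = 0.211), with voom (adjusted p = 0.156) and in FPKM (-0.07, adjusted p = 0.582).

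The remaining genes of this class differed little. Plk2, a polo-like kinase, had 159.7 to 203 CPM in the gels, against 165, 163 and 165 CPM in IR-Con. Its rise of 0.13 on the log2 scale (standard error 0.0348, adjusted p = 0.00347) did not pass with voom (adjusted p = 0.0979), and the gels themselves differed, as given below. Ptp4a3, a phosphatase of the PRL family, had 9.04 to 12.1 CPM in the gels, against 6.31, 9.47 and 9.53 CPM in IR-Con. Its rise of 0.30 (standard error 0.112, adjusted p = 0.0285) was lost without IR-Con replicate 1 (0.13, adjusted p = 0.319), with voom (adjusted p = 0.239) and in FPKM (1.39, adjusted p = 0.0561). Zmat3, an RNA-binding protein that controls splicing, and Plk3 had log2 fold changes of 0.10 and 0.05 and did not pass. Gdf15, a secreted stress cytokine, had 3.22 to 4.91 CPM in the gels, against 2.004, 4.03 and 4.87 CPM in IR-Con. Its log2 fold change of 0.22 did not pass (adjusted p = 0.319), and it was 0.49 without IR-Con replicate 3 (adjusted p = 0.0389) and -0.08 without IR-Con replicate 1 (adjusted p = 0.708).

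The survival genes of the Bcl-2 family did not move together. Mcl1, a short-lived inhibitor of apoptosis, lies on chromosome 3 from 95658788 to 95663176. It had 121 to 147 CPM in the gels (median 129.6), against 164, 178 and 167 CPM in IR-Con, with no overlap, and fell by 0.38 (standard error 0.0436, adjusted p = 2.66e-07). Bcl2, which blocks Bax at the mitochondrion, had 13.3 to 18.5 CPM in the gels (median 15.4), against 11.1, 12.9 and 11.9 CPM in IR-Con, also with no overlap. It rose by 0.38 (standard error 0.102, adjusted p = 0.00372), which voom did not call (adjusted p = 0.151). Bcl2l1, which encodes Bcl-xL, had 47.8 to 58.16 CPM in the gels, against 59.5, 58.22 and 59.0 CPM in IR-Con, barely apart. Its fall of 0.13 was just past the threshold (standard error 0.0558, adjusted p = 0.0465) and was lost in 16 of the 21 alternatives. The ratio of Bax to Bcl2 in CPM was 1.66 to 2.47 in the gels, against 2.39, 2.92 and 3.00 in IR-Con, with IR-Con replicate 1 inside the range of the gels. The ratio of Bbc3 to Mcl1 ran the other way, with 0.0415 to 0.0695 in the gels, against 0.024, 0.0266 and 0.0519 in IR-Con, where replicate 3 lay inside the range of the gels.

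Of the metabolic targets, Abhd4 was lower and Dcxr higher. Abhd4, a lipase that acts on N-acyl phospholipids, lies on chromosome 14 from 54254188 to 54270637. It had 154 to 166 CPM in the gels (median 158), against 197, 201 and 189 CPM in IR-Con, with no overlap. Abhd4 fell by 0.30 (standard error 0.0357, adjusted p = 4.77e-07). Dcxr, an L-xylulose reductase, had 7.33 to 9.61 CPM in the gels (median 8.70), against 5.89, 6.27 and 4.94 CPM in IR-Con. It rose by 0.60 (standard error 0.109, adjusted p = 9.14e-05) and narrowly missed the threshold with voom (adjusted p = 0.058). Fdxr, a mitochondrial reductase that passes electrons to ferredoxin, had a log2 fold change of 0.34 (adjusted p = 0.0745), and 0.47 without IR-Con replicate 3 (adjusted p = 0.0253) but 0.22 without IR-Con replicate 1 (adjusted p = 0.307).

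**Figure D2:**
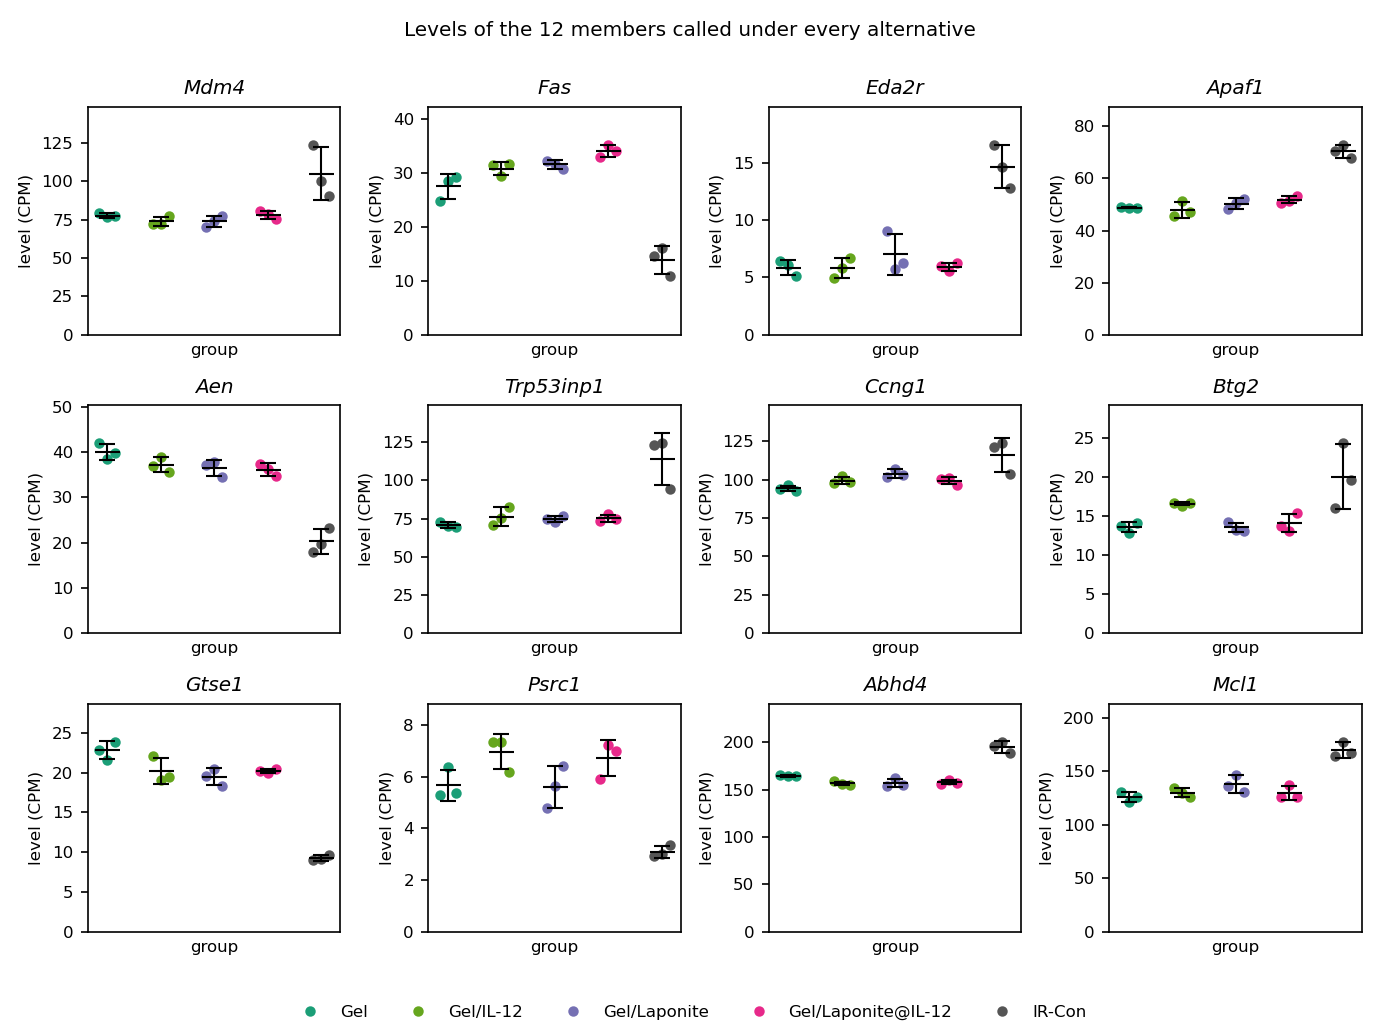
Level in CPM (vertical axis, from 0) of the 12 genes whose call held under every alternative, in each of the 15 libraries. Points are libraries by group, the long bar is the group mean and the short bars are the SD of 3 libraries. Fas, Aen, Gtse1 and Psrc1 have their lowest mean in IR-Con, the other 8 have their highest mean there, and for Mdm4, Trp53inp1 and Btg2 the IR-Con points are spread more widely than those of the gels.

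Counted by library, 14 of the 37 genes had no overlap between the 12 gel and the 3 IR-Con libraries (37.8%), against 33.6% of all genes tested. In the gels 6 were higher (18.0% of all genes) and 8 were lower (15.6%). The higher ones were Fas, Aen, Gtse1, Psrc1, Dcxr and Bcl2, and the lower ones Mdm2, Mdm4, Eda2r, Apaf1, Trp53inp1, Abhd4, Bcl2l1 and Mcl1. By class this was 5 of the 13 death genes, 2 of the 10 arrest genes and 0 of the 5 repair genes.

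**Figure D3:**
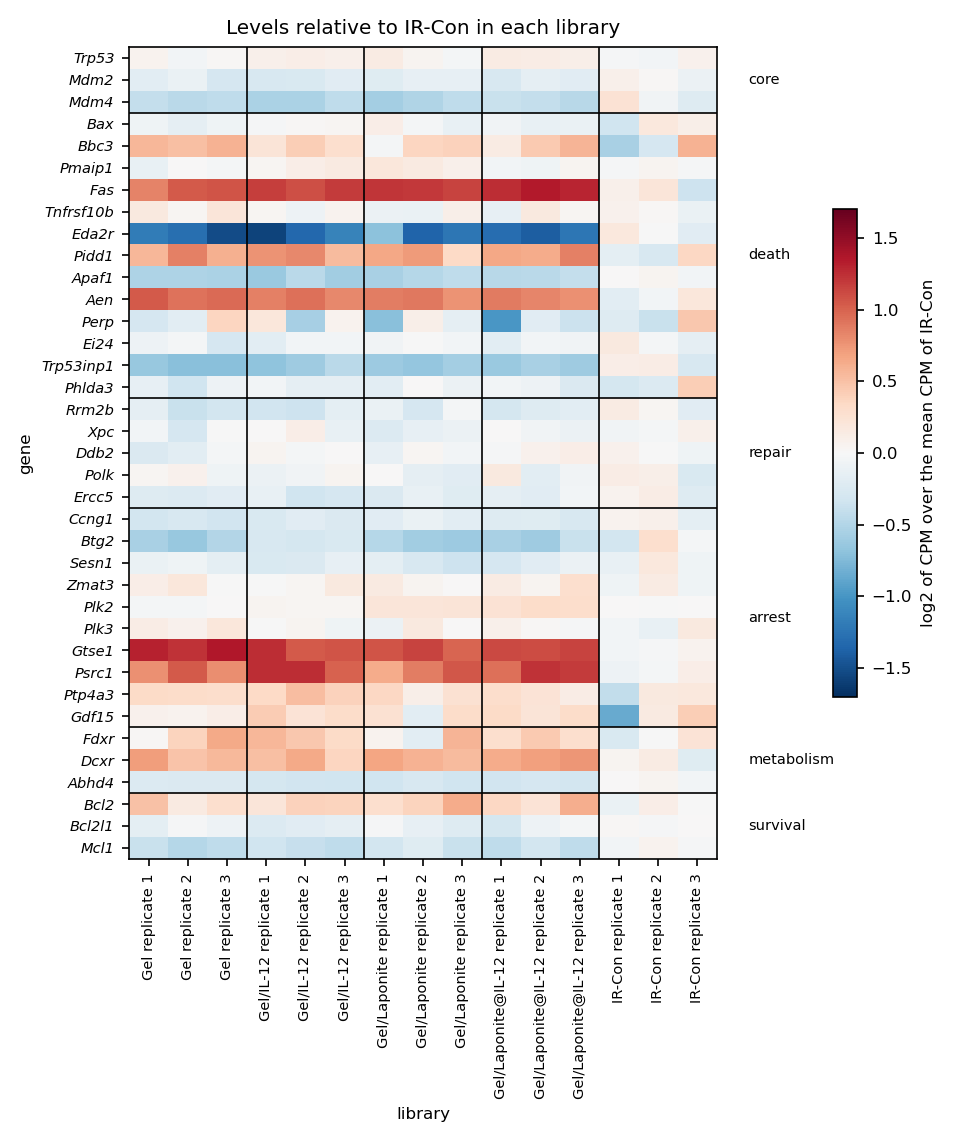
Log2 of the CPM in each library over the mean CPM of IR-Con (colour), for the 37 genes in rows by role and the 15 libraries in columns. Red rows such as Fas and Gtse1 and blue rows such as Eda2r run through all 12 gel libraries, while Bbc3, Phlda3 and Gdf15 differ as much among the 3 IR-Con libraries as between groups.

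Each gel was also compared with IR-Con alone. All 4 comparisons use the same 3 IR-Con libraries, so they are given side by side and not as repeats. In Gel 18 of the 37 genes differed, where 44.7% of all genes were called, 8 higher (22.9% of all genes) and 10 lower (21.8%). In Gel/IL-12 the number was 20, where 46.5% of all genes were called, 8 higher (24.0%) and 12 lower (22.6%). In Gel/Laponite it was 18, where 44.9% were called, 8 higher (23.2%) and 10 lower (21.7%). In Gel/Laponite@IL-12 it was 18, where 44.4% were called, 8 higher (23.0%) and 10 lower (21.5%). Fas had log2 fold changes over IR-Con of 1.29 in Gel/Laponite@IL-12, 1.18 with Gel/Laponite, 1.15 in Gel/IL-12 and 0.99 in Gel. Eda2r had -1.31, -1.07, -1.34 and -1.32 in the same order of gels. Plk2 had -0.02 in Gel and 0.04 in Gel/IL-12, which did not pass, while it passed with 0.29 in Gel/Laponite@IL-12 and 0.21 in Gel/Laponite. Btg2 had -0.51 in Gel/Laponite@IL-12, -0.56 with Gel/Laponite and -0.56 with Gel, and in Gel/IL-12 it had -0.27, which did not pass (adjusted p = 0.0634). Bbc3 passed in Gel with 0.57 (adjusted p = 0.0319) and had 0.41 in Gel/Laponite@IL-12, 0.27 with Gel/Laponite and 0.32 with Gel/IL-12, which did not pass. Among the repair genes, Rrm2b was lower in Gel/Laponite@IL-12, Gel/IL-12 and Gel, with -0.23, -0.28 and -0.28, and Ercc5 was lower in Gel/IL-12 with -0.25. No repair gene passed in Gel/Laponite.

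The additions to the gel were compared within the 12 gel libraries, without IR-Con. For the IL-12 effect the gels with IL-12 were averaged and set against those without, which gave no call among the 37 genes, where 0.342% of 15188 genes were called. At an unadjusted p under 0.05 there were 7 of the 37 genes (18.9%), where 6.47% of all genes were, and DESeq2 also called 0. The log2 fold changes ran from -0.16 for Perp (standard error 0.211) to 0.28 for Psrc1 (standard error 0.103, adjusted p = 0.441). The interaction of IL-12 and Laponite likewise gave 0 calls by edgeR and by DESeq2, where edgeR called 3.70% of all genes. At an unadjusted p under 0.05 there were 8 of the 37 genes (21.6%), where 14.8% of all genes were. Its log2 values ran from -0.31 for Pmaip1 (standard error 0.132) to 0.39 for Bbc3 (standard error 0.188, adjusted p = 0.305). A missed threshold does not show that levels were equal.

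The Laponite effect, which sets the gels with Laponite against those without, called 2 of the 37 genes (5.41%), Plk2 and Fas, where 5.52% of all genes were called. Both were higher with Laponite, as were 2.91% of all genes. Plk2 lies on chromosome 13 from 110395046 to 110400844 and is known to act on centrioles and in the response to stress. It had 195, 203 and 202 CPM with Gel/Laponite@IL-12 and 189.6, 190.0 and 191 CPM with Gel/Laponite, against 169, 168 and 168 CPM in Gel/IL-12 and 159.7, 161 and 165 CPM in Gel. Every library with Laponite was above every library without it, and IR-Con, with 165, 163 and 165 CPM, lay within the range of the libraries without it. Plk2 rose by 0.24 on the log2 scale (standard error 0.0219, adjusted p = 4.61e-15), and the call held in all alternatives run for the Laponite effect, with the highest adjusted p = 0.000132 among them. Fas had 32.9, 35.2 and 34.0 CPM with Gel/Laponite@IL-12 and 32.2, 31.7 and 30.7 CPM with Gel/Laponite, against 31.3, 29.4 and 31.5 CPM in Gel/IL-12 and 24.8, 28.5 and 29.1 CPM in Gel. These overlapped. Fas rose by 0.17 (standard error 0.047, adjusted p = 0.016), and did not pass with all 15 libraries in the fit (adjusted p = 0.558), without Gel replicate 1 (0.13, adjusted p = 0.113), without Gel/IL-12 replicate 2 (0.15, adjusted p = 0.0667) or without Gel/Laponite@IL-12 replicate 2 (0.15, adjusted p = 0.0519). None of the 5 repair genes passed for Laponite, with log2 fold changes from -0.06 for Polk to 0.08 for Rrm2b.

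**Figure D4:**
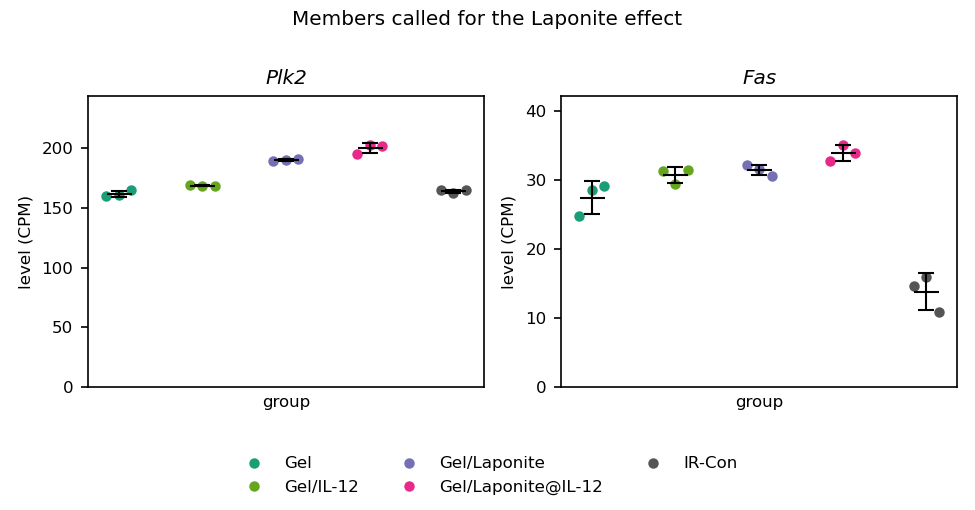
Level in CPM (vertical axis, from 0) of Plk2 and Fas in the 15 libraries by group, with the group mean (long bar) and the SD of 3 libraries (short bars). Plk2 averages 200.2 CPM in Gel/Laponite@IL-12 and 190.3 CPM in Gel/Laponite, above 169 CPM in Gel/IL-12, 162 CPM with Gel and 164 CPM in IR-Con, while Fas is above IR-Con in every gel.

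For context, a list of 41 other genes of the pathway was counted, of which 40 were tested. For the gel effect 10 were higher, 15 were lower and 15 did not pass, with a median log2 fold change of -0.01. This is 62.5% called, against 55.0% of all genes tested (27.4% higher, 27.6% lower). The lowest 3 among those called were Cdkn1a, Sesn3 and Sfn, with -1.06, -0.81 and -0.75. Sfn was a very low gene, with 0.39 to 1.14 CPM in the gels, against 1.04 to 1.34 CPM in IR-Con, and these overlapped. Cdkn1a, the best known arrest target of p53, encodes an inhibitor of cyclin-dependent kinases. Cdkn1a had 21.8 to 32.8 CPM in the gels, against 48.3, 50.5 and 62.5 CPM in IR-Con, with no overlap (standard error 0.0752, adjusted p = 1.63e-10). It fell, as Btg2, Ccng1 and Sesn1 did, while Gtse1, Psrc1, Plk2 and Ptp4a3 rose. Within the gels Cdkn1a was higher with Laponite, as Plk2 was, by 0.27 on the log2 scale (adjusted p = 0.000197). The other 9 of the 10 arrest and growth control genes were not called for Laponite. Of the 40 other pathway genes 5 were higher with Laponite (12.5%) and none lower, where 2.91% of all genes were higher. For the gel effect over IR-Con, the highest 3 among those called were Cycs, Chek1 and Ckap2, with 0.91, 0.78 and 0.78. Cycs encodes cytochrome c, Chek1 a checkpoint kinase and Ckap2 a spindle protein.

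Levels can be set between genes only per length, for which the authors' FPKM values were averaged over the 12 gel libraries. Abhd4 and Plk2 were highest, with 52.0 and 51.8 FPKM, followed by Bax with 37.9, Mcl1 with 28.8 and Ccng1 with 22.0 FPKM. The inhibitors Mdm2 and Mdm4 had 15.4 and 5.04 FPKM, and Trp53 had 10.5 FPKM. The lowest were Perp with 0.644, Eda2r with 1.11 and Pidd1 with 1.16 FPKM. The FPKM values did not track the counts within a gene. The log2 ratio of FPKM to CPM had a range over the 15 libraries of 0.12 to 4.17 by gene (median 0.31). CPM was scaled by TMM and FPKM was not. A factor shared by all genes of a library would alone give every gene the same range. The range was widest for Ptp4a3, whose FPKM ran from 0.150 to 3.88 among the IR-Con libraries. For 8 of the 37 genes, Bax and Mdm2 among them, FPKM as deposited and CPM put the average level of the gels on opposite sides of that of IR-Con. This comparison used FPKM without TMM scaling. In the alternative that scaled FPKM by TMM, Mdm2 had -0.09, on the same side as in CPM, and Bax had 0.20, on the opposite side. FPKM therefore served for the order of genes and as 1 of the alternatives, and how the authors derived it from the reads is not given in the sources used here.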

How the data were processed

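RNA of 15 libraries was sequenced, and the authors deposited a raw read count per gene and library, as whole numbers without normalization, together with FPKM values, which scale reads by gene length and depth. The labels name the genome build mm10. The aligner and the counting tool are not given in the sources used here. The coordinates in the table did not match GRCm38, so positions are those of GENCODE M21 on GRCm38, matched by gene identifier. The table's 10 comparisons by the authors (log2 fold changes and adjusted p-values) were not used.

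Counts were filtered with edgeR 4.0.16 (filterByExpr, minimum count 10, minimum total 15), scaled by TMM and fitted with a robust quasi-likelihood model in R 4.3.3. Comparisons with IR-Con used all 15 libraries (15590 genes, 10 residual degrees of freedom), and those within the gels used the 12 gel libraries (15188 genes, 8 residual degrees of freedom), because the IR-Con libraries spread more. In each of 8 comparisons the Benjamini-Hochberg adjustment covered all genes tested, and the threshold was 0.05. Standard errors were the log2 fold change over the square root of F. The steps were tested on simulated data. Alternatives were DESeq2 1.42.0 size factors and test, no filter, a replicate block, limma 3.58.1 voom with weights, other sets of libraries, and leaving out each library. The FPKM alternative (FPKM scaled by TMM, limma on log2(FPKM + 0.1)) was chosen after seeing the data. All 37 genes are accounted for, and of the other pathway genes Cdkn1a and the 3 highest and 3 lowest called were named. The genes and lists were chosen with earlier results of these data known. No library was identical to another, and between libraries of a group the chi-square per degree of freedom was 2.01 to 2.97 in the gels and 11.3 to 28.5 in IR-Con. The total count was 14506459 to 17818982 per library, at which counting error alone gave the 37 genes a median coefficient of variation of 4.72% to 5.16% by group.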

Additional observations from a re-analysis of the deposited data

How the results depend on the processing

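Depth did not limit the detection of these genes, since all 37 passed the filter, but the 3 IR-Con libraries and their spread limit every comparison with IR-Con. With limma's voom and weights, 12 of the 37 genes were called for the gel effect and 11 for Gel over IR-Con. The count was 12 for Gel/IL-12, 11 for Gel/Laponite and 14 for Gel/Laponite@IL-12. Over all 15590 genes tested the gel effect gave 5156 calls with voom, against 8573 with edgeR. Voom called 4714 of these genes for Gel, 5051 for Gel/IL-12, 4803 for Gel/Laponite and 4701 for Gel/Laponite@IL-12. With only the 6 libraries of the comparison, 13 of the 37 genes were called for Gel/IL-12 and 14 for each other gel. These fits called 4498 of 14831 genes for Gel, 4914 of 14925 for Gel/IL-12, 4631 of 14815 for Gel/Laponite and 4484 of 14748 for Gel/Laponite@IL-12. With all libraries edgeR called 6968, 7255, 6997 and 6924 of 15590 in the same order. With all 15 libraries in the fit, 1 of the 37 genes was called for the Laponite effect, and over all genes there were 134 calls for Laponite, 3 for IL-12 and 0 for the interaction, against 839, 52 and 562 within the gels. Leaving out each library in turn gave 19 to 26 called genes for the gel effect, 14 to 22 for Gel, 14 to 23 for Gel/IL-12, 14 to 21 for Gel/Laponite, 16 to 23 for Gel/Laponite@IL-12, 0 to 0 for IL-12, 1 to 2 for Laponite and 0 to 0 for the interaction. Over all genes these fits gave 8035 to 9220 calls for the gel effect, 5993 to 8131 for Gel and 6298 to 8335 for Gel/IL-12. They gave 6035 to 8124 for Gel/Laponite and 5914 to 8026 for Gel/Laponite@IL-12, of 15856 to 16069 genes tested. Within gels they gave 33 to 50 for IL-12, 681 to 815 for Laponite and 375 to 666 for the interaction, of 15466 to 15527. In the FPKM values Ercc5 was the only gene called in the main fit that changed sign for the gel effect, to 0.0201. Bax, Pmaip1, Ddb2 and Polk, which were called in neither fit, also changed sign. The causes were not tested. Over all genes the median log2 fold change was -0.008 with TMM, -0.015 with DESeq2's size factors and 0.002 in FPKM.

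Libraries with the same replicate number did not deviate together, as none of 30 pairs had a correlation over 0.1 (range -0.07 to 0.04), so the numbers were not used as pairs. With the replicate block, 22 of the 37 genes were called for the gel effect, 18 for Gel, 21 for Gel/IL-12 and 18 for Gel/Laponite. The count was 17 for Gel/Laponite@IL-12, 0 for IL-12, 2 for Laponite and 0 for the interaction. Over all genes the block gave 8434, 6807, 7124, 6881 and 6800 calls of 15590 for the comparisons with IR-Con, in that order. Within the gels it gave 53, 825 and 561 of 15188.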
